A study of Mus musculus with 4 samples.

Results

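Major basic protein, eosinophil peroxidase, the eosinophil-associated ribonucleases, Siglec-F, CCR3 and the IL-5 receptor α chain form the classical granule and surface equipment of the mouse eosinophil. Their genes Prg2, Epx, Ear1, Ear2, Ear6, Ear10, Siglecf, Ccr3 and Il5ra were examined in bronchoalveolar lavage fluid (BALF) cells, the cells washed out of the airspaces of the lung. These 9 genes, of the 15429 named genes that could be tested, were chosen by their function and by values measured on the same arrays, so that the comparison of the genotypes is given for them as a description with no test. They were represented by 10 probes of the 39429 on the array, Siglecf by 2 and each of the others by 1. Of these 9 genes, 4 (Prg2, Epx, Ccr3 and Il5ra) read less than 0.5 of the wild-type signal on the arrays labelled S1pr2-/-, being 13.3- to 40.1-fold lower, while Ear1, Ear2, Ear10 and Siglecf differed by at most 0.15 on the log2 scale and Ear6 lay between these groups.

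The BALF cells came from wild-type and S1pr2-/- mice that had received repeated intraperitoneal bleomycin at 0.035 U/g, and were collected on day 22. S1pr2 encodes a receptor for the lipid mediator sphingosine-1-phosphate, and bleomycin is a chemotherapeutic drug that injures the lung and causes fibrosis. According to the methods, the S1pr2-/- mice carried a targeted disruption in all cells on a mixed genetic background including C57BL/6J, and the wild-type mice were their littermates. All 4 samples had thus been exposed to bleomycin, and mice without bleomycin were not analysed here. RNA of each sample was hybridized to a single-color Agilent whole mouse genome array, with 2 arrays for wild-type and 2 for S1pr2-/- mice. The mice were young adults when the injections began, and the number of mice behind an array was not given. The methods state that the 2 RNA samples of a genotype were independent, but nothing in the labels ties them to particular animals. How much of the spread between the 2 arrays is technical is therefore not known.

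Levels are given on the log2 scale, relative to the 75th percentile of the processed signals of the same array, so that 0 is the 75th percentile, with a floor of -6.64 that stands for 0.01 of it. The 75th percentile lay between 2489 and 2817 intensity units, and between 67.6% and 72.1% of the probes were well above background. The targeted gene went against its label. The S1pr2 probe read -0.13 and -0.16 on the wild-type arrays against 2.67 and 2.54 on the other arrays. It was 6.72-fold higher on those labelled S1pr2-/- (SE 0.07 on the log2 scale, unadjusted p = 1.89e-05, adjusted p = 0.335, limma). No probe on the arrays had a lower adjusted p. Whether the probe lies outside the disrupted part of the gene, where it would check nothing, is not given in the sources used here. The arrays are therefore called "labelled S1pr2-/-", and each direction rests on these labels. With 2 arrays per genotype the smallest p of an exact two-sided permutation test is 0.333, and precision is limited by how few arrays there are.

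Eosinophils are granulocytes that mature in the bone marrow under the control of GATA and C/EBP factors, and depend on interleukin-5 for their production and survival. Eotaxins draw them into tissues through CCR3. Their granules hold cationic proteins that are released on activation, and they are best known in the lung from allergic inflammation and helminth infection. Several of these genes are not restricted to eosinophils: mouse alveolar macrophages also carry Siglec-F on their surface and express ribonucleases of the Ear family.

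The stretch of 250 bases upstream of the start of transcription is shown for the genes that were lower and for the ribonucleases, because genes of both kinds stood side by side in the list and behaved differently on the arrays. RefSeq (GRCm38.p6) gave such a stretch for 8 of the 9 genes, all but Prg2, which lies at chr2:84980461-84983632. GATA factors bind a short core motif, which was searched on both strands in 4 spellings: AGATAA, the same ending in G (AGATAG), and both again with a leading T, TGATAA as well as TGATAG. Capitals mark the matches in the upstream stretches of Ccr3 (chr9:124021721-124021970, plus strand), Il5ra (chr6:106749038-106749287, minus strand) and Epx (chr11:87875537-87875786, minus strand), written 5′ to 3′ and ending at the base before the start.
Ccr3: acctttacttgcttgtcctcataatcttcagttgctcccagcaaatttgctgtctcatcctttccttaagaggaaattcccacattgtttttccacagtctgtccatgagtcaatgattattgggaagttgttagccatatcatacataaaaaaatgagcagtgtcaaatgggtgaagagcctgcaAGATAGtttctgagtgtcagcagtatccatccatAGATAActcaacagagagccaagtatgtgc
Il5ra: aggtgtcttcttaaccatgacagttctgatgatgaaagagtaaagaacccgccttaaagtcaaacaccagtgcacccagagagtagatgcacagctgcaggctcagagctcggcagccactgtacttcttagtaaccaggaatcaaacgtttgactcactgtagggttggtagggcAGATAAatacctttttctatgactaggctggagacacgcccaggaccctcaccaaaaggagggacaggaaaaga
Epx: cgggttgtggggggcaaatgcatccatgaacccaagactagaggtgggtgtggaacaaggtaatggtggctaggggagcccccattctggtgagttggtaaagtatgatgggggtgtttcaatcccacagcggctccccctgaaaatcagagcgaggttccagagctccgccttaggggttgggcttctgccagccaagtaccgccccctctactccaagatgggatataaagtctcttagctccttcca
The Ccr3 stretch held AGATAG beginning at position -64 and AGATAA beginning at -30 from the start, and the Il5ra stretch held AGATAA beginning at -74. The start used for Ccr3 lies inside the span that RefSeq gives the gene (chr9:124017825-124031692), so other transcripts start elsewhere. No match was found in the stretch of Epx, nor in those of Siglecf, Ear1, Ear2, Ear6 and Ear10. Over all 32851 stretches of this length in the table, 26.5% held at least 1 match and 6.4% held 2 or more, so that 2 of 8 is near the share among all genes. A match of these letters is a description of the sequence and not a site of binding.

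The ribonuclease genes all lie on chromosome 14, and their upstream stretches are close copies. Ear2 (chr14:44102404-44102653, plus strand) is written in lower case, and capitals in Ear1 (chr14:43819640-43819889, minus strand), Ear10 (chr14:43923597-43923846, minus strand) and Ear6 (chr14:51853518-51853767, plus strand) mark each base that is not the same in an alignment with Ear2.
Ear2: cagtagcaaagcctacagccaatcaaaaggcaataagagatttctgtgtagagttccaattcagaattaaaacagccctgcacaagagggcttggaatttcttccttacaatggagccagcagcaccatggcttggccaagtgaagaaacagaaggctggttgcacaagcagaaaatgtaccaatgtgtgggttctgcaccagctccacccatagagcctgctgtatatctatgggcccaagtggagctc
Ear1: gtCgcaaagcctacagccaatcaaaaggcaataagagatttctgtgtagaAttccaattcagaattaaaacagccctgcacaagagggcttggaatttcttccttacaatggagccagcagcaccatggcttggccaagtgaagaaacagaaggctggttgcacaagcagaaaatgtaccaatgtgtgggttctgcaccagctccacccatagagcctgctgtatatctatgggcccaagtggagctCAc
Ear10: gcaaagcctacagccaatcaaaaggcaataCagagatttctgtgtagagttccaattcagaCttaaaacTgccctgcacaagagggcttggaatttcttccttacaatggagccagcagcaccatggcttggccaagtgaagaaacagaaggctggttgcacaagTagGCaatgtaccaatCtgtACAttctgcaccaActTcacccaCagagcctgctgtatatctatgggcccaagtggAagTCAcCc
Ear6: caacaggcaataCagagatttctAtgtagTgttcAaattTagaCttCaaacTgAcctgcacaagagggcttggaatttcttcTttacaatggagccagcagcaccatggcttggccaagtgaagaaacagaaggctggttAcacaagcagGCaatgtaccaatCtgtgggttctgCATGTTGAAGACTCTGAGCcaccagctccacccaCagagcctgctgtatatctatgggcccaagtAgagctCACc
Ear1 shared 97.6% of the aligned positions with Ear2, and Ear10 shared 91.0%. Ear6 shared 77.7% with Ear2, and carried a run of 19 bases in a row with no identical partner there. Pairs of stretches from different gene families gave between 48.0% and 52.8% by the same alignment, which is what unrelated sequence gives here. The transcripts of this family are also related, so how far each Ear probe read the RNA of its relatives is not known, and the Ear values are uncertain in that respect.

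**Figure D1:**
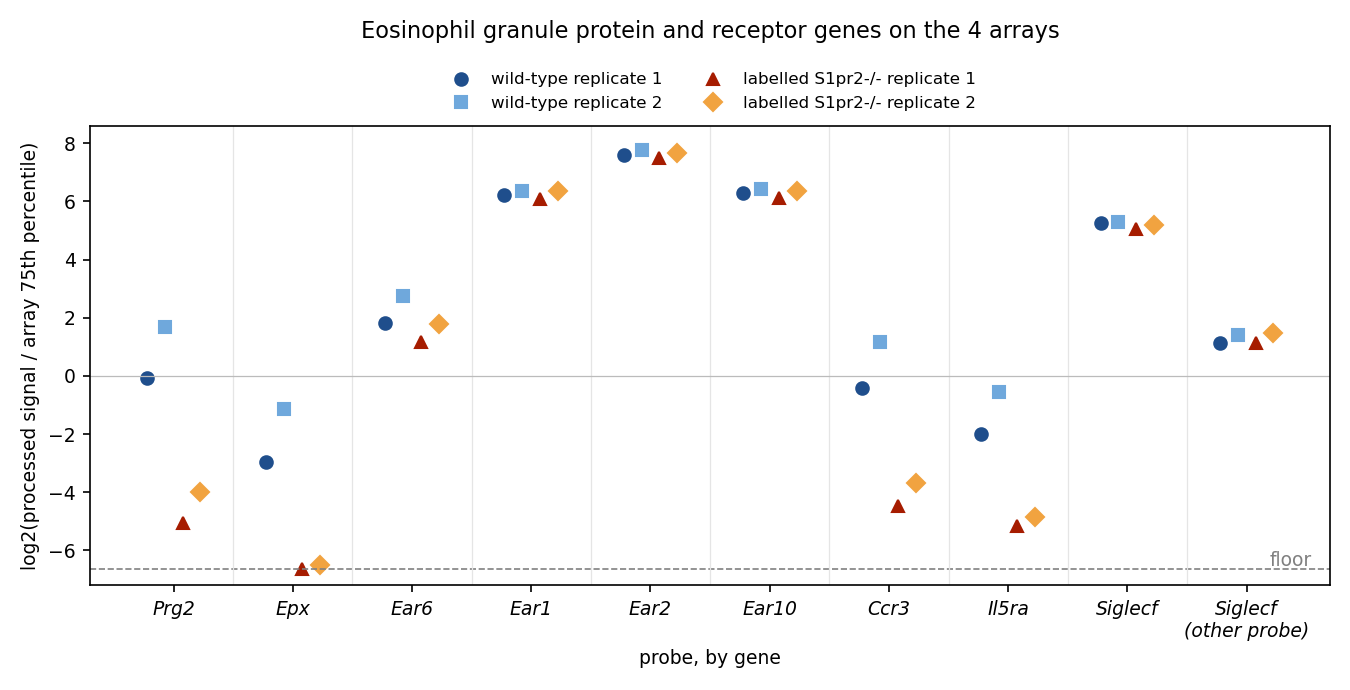
Level of each of the 10 probes on the 4 arrays, on the log2 scale relative to the 75th percentile of that array; circles and squares are wild-type replicates 1 and 2, triangles and diamonds are the arrays labelled S1pr2-/-, and the dashed line is the floor of -6.64. Prg2, Epx, Ccr3 and Il5ra separate by genotype label by at least 2.86 between the nearest arrays, whereas the points of Ear1, Ear2, Ear10 and the second Siglecf probe overlap. Levels of different probes are not comparable with each other.

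The granule proteins Prg2 and Epx were both lower on the arrays labelled S1pr2-/-. Prg2, which encodes major basic protein, the toxic core protein of the granule, read -0.07 and 1.69 on the wild-type arrays against -5.04 and -3.99 on those labelled S1pr2-/-. In intensity units these were 2429 and 8044 against 85 and 163, and all 4 spots were well above background. Both wild-type arrays were high and both others low, with 3.91 on the log2 scale between the nearest arrays of the groups. The means were 0.81 ± 1.25 (SD, n = 2) and -4.51 ± 0.75 (SD, n = 2), a difference of -5.32, or 40.1-fold lower.

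Epx encodes eosinophil peroxidase, which makes hypohalous acids from hydrogen peroxide. Its probe read -2.96 and -1.13 in wild-type mice. The arrays labelled S1pr2-/- gave -6.64 and -6.50, the former at the floor and not well above background. The intensities were 329 and 1135 against 19 and 29. The groups were 3.54 apart at their nearest arrays. The difference of the means was -4.52, and because of the array at the floor the signal is given as at least 23.0-fold lower. Epx was kept only through the wild-type arrays, since the filter required signal on both arrays of a genotype. The filter only chooses which probes are fitted, so it cannot alter the difference of Epx. With no floor that difference was -4.82. All the other 9 probes were well above background on 4 of 4 arrays.

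Both receptors that define the eosinophil's response to its recruiting and survival signals were lower as well. Ccr3, the receptor for eotaxins, read -0.41 and 1.17 on the wild-type arrays against -4.48 and -3.69 on those labelled S1pr2-/-, with intensities of 1922 and 5609 against 126 and 200. The 2 wild-type arrays were above both others by at least 3.28. The means of 0.38 ± 1.12 (SD, n = 2) and -4.09 ± 0.56 (SD, n = 2) differed by -4.47, or 22.1-fold lower. Il5ra, the α chain that gives the IL-5 receptor its specificity, read -2.0 and -0.56 against -5.17 and -4.86. Its intensities were 637 and 1687 against 78 and 89, and the groups were 2.86 apart at their nearest arrays. The means of -1.28 ± 1.02 (SD, n = 2) and -5.02 ± 0.22 (SD, n = 2) differed by -3.73, or 13.3-fold lower.

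Siglecf, the sialic acid-binding lectin that restrains eosinophils and is the surface marker most used to sort them in mice, behaved differently from these receptors. Its brighter probe read 5.26 and 5.28 on the wild-type arrays against 5.05 and 5.19 on those labelled S1pr2-/-. The arrays labelled S1pr2-/- were lower by 0.07 at the nearest arrays and by 0.15 in the mean. Its other probe read 1.12 and 1.40 against 1.12 and 1.49, a difference of 0.05 in the opposite direction with overlapping groups. The 2 Siglecf probes thus gave no common direction.

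The ribonucleases were not alike. Ear2 read 7.58 and 7.78 on the wild-type arrays against 7.48 and 7.65 on those labelled S1pr2-/-, with overlapping groups and a difference of -0.12. Ear1 read 6.21 and 6.36 against 6.08 and 6.36, a difference of -0.07. Ear10 read 6.30 and 6.44 against 6.13 and 6.34, a difference of -0.13. All 3 groups overlapped, and each of these signals was at least 67.8 times the 75th percentile of its array on all 4 arrays. Under quantile normalization the difference of Ear1 was 0.00, and it was between -0.20 and 0.07 when any single array was left out, so no direction is given for it.

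Ear6 differed more than the other ribonucleases, and its groups just failed to overlap. It read 1.81 and 2.73 on the wild-type arrays against 1.16 and 1.80 on those labelled S1pr2-/-, with intensities of 8952 and 16551 against 6282 and 8949. The lowest wild-type array exceeded the highest of the others by 0.01, which is far less than the 0.92 between the wild-type arrays. The means of 2.27 ± 0.65 (SD, n = 2) and 1.48 ± 0.45 (SD, n = 2) differed by -0.79, or 1.73-fold lower. The difference was -1.26 without wild-type replicate 1 and -0.33 without wild-type replicate 2.

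Over all named genes tested, 231 of 15429, or 1.5%, had less than 0.5 of the wild-type signal on the arrays labelled S1pr2-/-, and the 4 of 9 stand beside that share. As the members were selected on these arrays, nothing is read from it. Above 2-fold were 32 genes, or 0.207%, and none of the 9 (0 of 9, with the highest at -0.07). Reported probes of 6 of the 9 genes had both arrays labelled S1pr2-/- below both wild-type arrays, against 21.9% of all genes, and 2 of these 6 (Ear6 and Siglecf) were separated by only 0.01 and 0.07. The median difference of the 9 genes was -0.79, the value of Ear6, and that of all genes was 0.00. In these mixed cells, fewer cells of a type and less RNA per cell cannot be told apart.

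**Figure D2:**
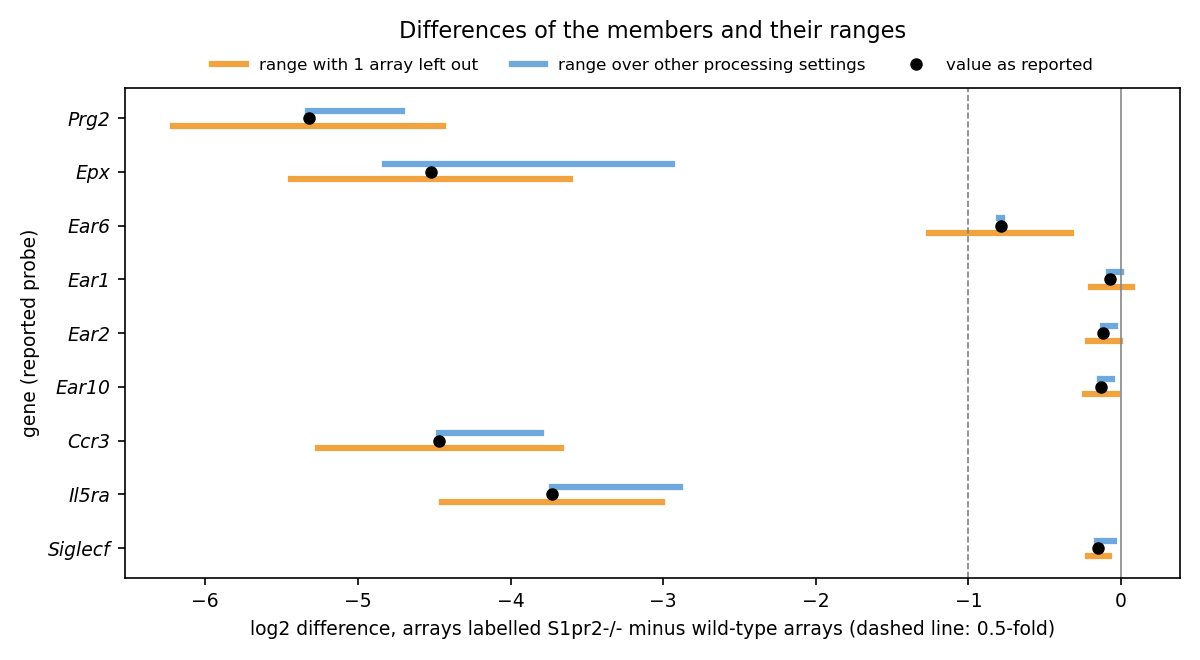
Difference between the arrays labelled S1pr2-/- and the wild-type arrays for the reported probe of each gene, on the log2 scale. Black points are the reported values, blue bars the range over other processing settings and orange bars the range with any 1 array left out. The bars of Prg2, Epx, Ccr3 and Il5ra all stay below the dashed line at 0.5-fold, from -6.21 to -2.89, Ear6 crosses that line, and Ear1 crosses 0.

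For Prg2, Epx, Ccr3 and Il5ra, the size of the difference depended on the wild-type replicate and on the treatment of low signals, and its direction was the same in every setting run. Prg2 was 74.0-fold lower without wild-type replicate 1 and 21.7-fold lower without wild-type replicate 2, and Ccr3 38.3-fold and 12.7-fold. With normexp background correction, which here adds an offset of 50 to every spot, the differences were -4.71 for Prg2, -3.80 for Ccr3, -2.94 for Epx and -2.89 for Il5ra. Epx was at -3.24 when the percentile was taken over detected probes only.

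Prg2, Epx, Ccr3 and Il5ra also differed between the replicates of the wild-type mice. From wild-type replicate 1 to replicate 2, Epx differed by 1.83, Prg2 by 1.77, Ccr3 by 1.58 and Il5ra by 1.44 on the log2 scale. The median size of this difference over all genes was 0.12, and between 0.57% and 0.972% of the 15429 genes differed more than these 4. Ear6 differed by 0.92, exceeded by 2.46% of genes. Ear1, Ear2, Ear10 and Siglecf differed by 0.03 to 0.21 between the wild-type arrays, within the range of common genes, since between 29.6% and 86.5% of genes differed more.

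Between the arrays labelled S1pr2-/-, replicate 2 was also the higher for the members. Prg2 differed by 1.06, exceeded by 1.33% of genes, and Ccr3 by 0.79, exceeded by 2.94%. Il5ra differed by 0.31, exceeded by 18.4% of genes. For Epx the difference was at least 0.15, because its replicate 1 lay at the floor. The 41.3% of genes that exceeded 0.15 therefore do not rank Epx. All 9 genes were higher on replicate 2 in both genotypes, against 27.3% of all genes. The labels describe 2 independent experiments without saying that a replicate number marks an experiment, so same-numbered arrays are not taken as pairs.

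**Figure D3:**
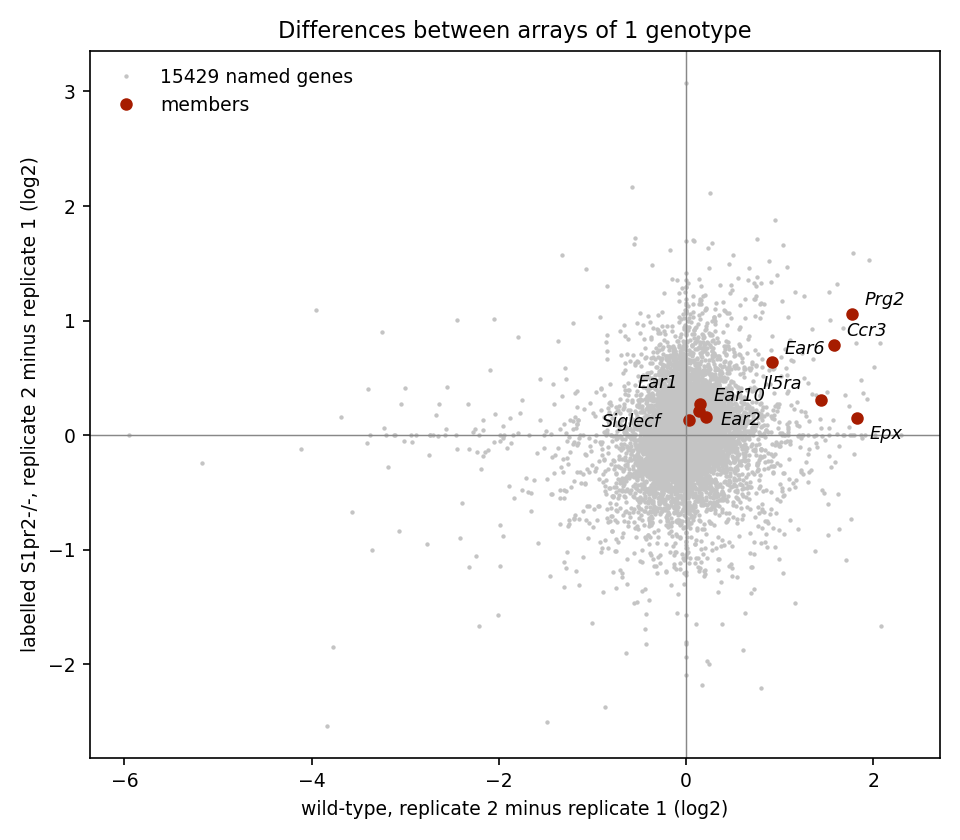
Difference between replicate 2 and replicate 1 in wild-type mice (horizontal axis) and on the arrays labelled S1pr2-/- (vertical axis), both on the log2 scale, with 15429 named genes in grey and the 9 members in red. All 9 members lie in the upper right part, with Prg2, Epx, Ccr3 and Il5ra at 1.44 to 1.83 on the horizontal axis and Ear1, Ear2, Ear10 and Siglecf near 0. The vertical value of Epx is a lower bound, since its replicate 1 labelled S1pr2-/- lay at the floor.

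Set against wild-type replicate 1, the members fell into separate profiles. Prg2, Epx, Ccr3 and Il5ra were 1.44 to 1.83 higher on wild-type replicate 2, at -4.97 to -3.17 on replicate 1 labelled S1pr2-/- and at -3.91 to -2.86 on replicate 2 of that label. Ear1, Ear2, Ear10 and Siglecf stayed within 0.21 of wild-type replicate 1 on all the other arrays. The likeness of profiles was measured as the root mean square distance over the 4 arrays after each gene's mean was taken off. It was 0.245 between Epx and Ccr3, 0.407 between Ccr3 and Il5ra and 0.444 between Prg2 and Ccr3, and 0.0308 between Ear2 and Ear10. Between Prg2 and Ear1 it was 2.70. As the profiles share 4 arrays, and the genotype contrast was used to choose the genes, these distances are a description.

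The genes outside all lists whose profile was nearest to the median profile of the 9 members were Ccl22, Klf5, Il20rb, Ap1m2 and Oxt, at distances of 0.0807 to 0.126 over 4 arrays. Ccl22 encodes a chemokine for CCR4, Klf5 a zinc finger transcription factor, Il20rb a chain of the receptors for IL-20 family cytokines, Ap1m2 an epithelial clathrin adaptor subunit and Oxt oxytocin. Ccl22 read -4.37 and -3.55 on the wild-type arrays against -4.97 and -4.38 on those labelled S1pr2-/-, a difference of -0.71. The median profile is close to that of Ear6, so these genes lie near Ear6 and not near Prg2.

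Other genes of the eosinophil's pathway were read from 5 lists of 68 genes, of which 63 had a probe and 59 could be tested with limma. Of these 59, 6 passed the rule of less than 0.5-fold with an unadjusted p under 0.05, and 0 were above 2-fold, beside 0.823% and 0.13% of all 15429 genes for the same rules. By the fold alone 8 of the 59 were below 0.5-fold, the other 2 being Ccl8 and Il1rl1. At an adjusted p under 0.05 limma called 0 of the 59 and 0 of all genes (0.0%), with adjusted p of the 59 genes between 0.508 and 0.981. At an unadjusted p under 0.05 alone, 11 of the 59 and 1618 of all genes were counted. The median difference of the 59 genes was -0.07.

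Among the ligands, 1 of 7 tested genes passed this rule. Ccl24, which encodes eotaxin-2, a ligand of CCR3, read 1.15 and 2.78 on the wild-type arrays against -5.83 and -6.64 on those labelled S1pr2-/-, the latter at the floor. Its difference of -8.20 (SE 0.72, unadjusted p = 0.000934, adjusted p = 0.508, limma) corresponds to at least 294-fold lower signal. Ccl11, which encodes eotaxin-1, was at the floor and not well above background on all 4 arrays. Il5, the ligand of the Il5ra product, read -4.42 and -3.80 against -4.88 and -4.68, a difference of -0.68 that did not pass (unadjusted p = 0.073, limma). Ccl5 and Ccl8, chemokines of the same list, differed by -0.28 and -1.04 and did not pass (unadjusted p = 0.335 for both, limma). Ccl8 was below 0.5-fold by the fold alone, and the arrays labelled S1pr2-/- were far apart for Ccl8, at -0.84 and -3.04.

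None of the 8 genes of the partners and signalling of the IL-5 receptor passed (0 of 8), with differences between -0.39 and 0.05. Csf2rb, the shared β chain that Il5ra's product needs to signal, read 5.82 and 5.86 on the wild-type arrays against 5.82 and 5.84 on those labelled S1pr2-/-, a difference of -0.02. Csf2rb2, its mouse-specific relative, differed by -0.08 and Csf2ra, the α chain of the GM-CSF receptor, by -0.04. The kinase Jak2, at -0.39, had the lowest value of the list. The β chain is shared with the receptors for GM-CSF and interleukin-3 and is found on many myeloid cells.

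Of 9 transcription factors tested, 2 passed. Gata1, the factor without which mice lack eosinophils and mature erythroid cells, read -1.13 and 0.41 on the wild-type arrays against -6.45 and -5.44 on those labelled S1pr2-/-, a difference of -5.58 (SE 0.72, unadjusted p = 0.0032, adjusted p = 0.508, limma). Cebpe, a factor of late granulocyte maturation, read 1.89 and 3.59 against -1.80 and -1.45, a difference of -4.37 (unadjusted p = 0.00583, limma). Cebpa, Cebpb, Spi1, Id2, Zfpm1, Trib1 and Xbp1 differed by -0.29 to 0.27. Gata2 was at the floor on all 4 arrays.

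Of 19 other surface and enzyme genes, 2 passed, and 3 were below 0.5-fold by the fold alone. Alox15, a lipoxygenase abundant in eosinophils and in some macrophages, read -1.81 and 0.15 on the wild-type arrays against -6.42 and -4.89 on those labelled S1pr2-/-, a difference of -4.83 (unadjusted p = 0.0126, limma). Padi4, which citrullinates histones in granulocytes, read -1.67 and -0.19 against -5.47 and -5.98, a difference of -4.80 (unadjusted p = 0.00312, limma), while its other probe differed by -1.81. Il1rl1, the receptor for interleukin-33, read 0.48 and 1.94 against -0.23 and -0.71, a difference of -1.68 that did not pass (unadjusted p = 0.0611, limma). The leukotriene genes Alox5, Alox5ap and Ltc4s differed by -0.03 to 0.14. Adgre4 and Ffar2 differed by -0.98 and -0.66, short of 0.5-fold, and Ptgdr2, a receptor for prostaglandin D2, by -0.19.

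Among the relatives of the members in their gene families, 1 of 16 tested genes passed, and the median was -0.07. That gene, Siglecg, a lectin best known from B cells, differed by -1.30 (SE 0.29, unadjusted p = 0.018, limma), and its other probe by -1.04. Prg3, the homologue of Prg2, was well above background on 1 of 4 arrays and was not tested. Rnase2a, formerly Ear11, read 6.65 and 6.82 on the wild-type arrays against 6.47 and 6.70 on those labelled S1pr2-/-, and Rnase2b, formerly Ear5, differed by -0.48. Mpo and Lpo, the peroxidases of neutrophils and of secretions, differed by -0.07 and -0.15, and the chemokine receptors Ccr1 and Ccr2 by -0.42 and 0.08. The lists were drawn up with earlier results of these arrays known and are not independent evidence.

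**Figure D4:**
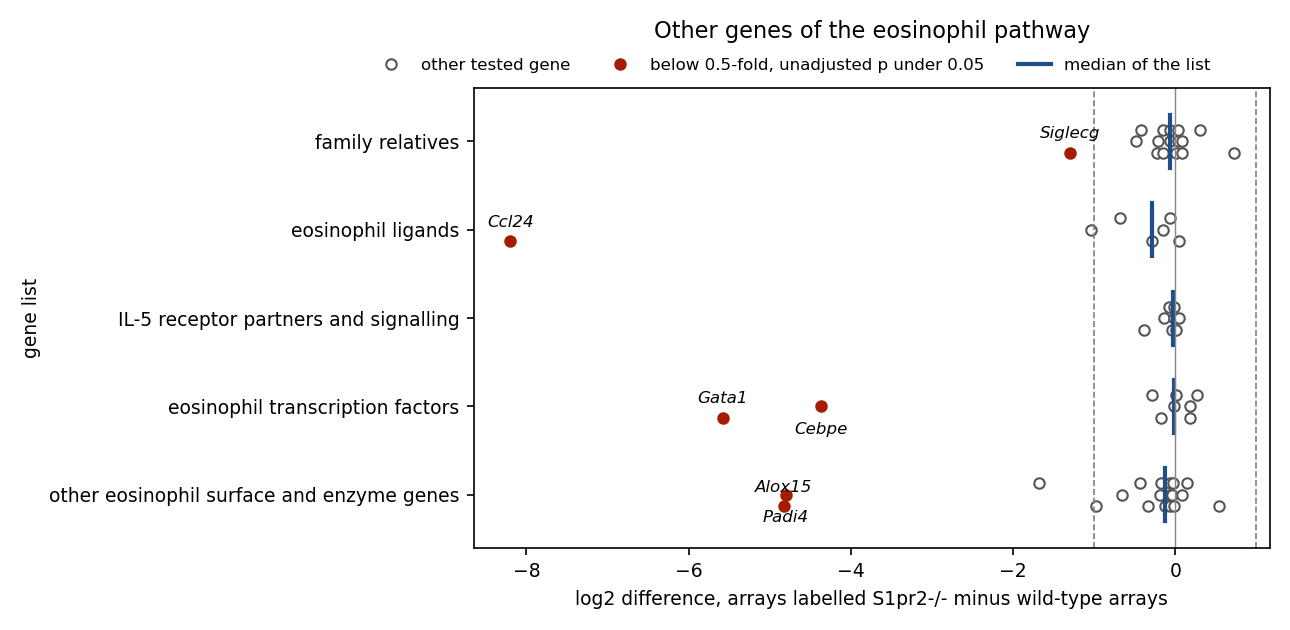
Differences on the log2 scale of the 59 tested genes of 5 lists, with filled points for genes below 0.5-fold at an unadjusted p under 0.05 (limma), blue bars for the median of each list and dashed lines at 0.5- and 2-fold. In each list the median lies between -0.28 and -0.02, and the 6 filled points, among them Ccl24 at -8.20 as a lower bound of the change, stand apart from it.

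Markers of other cell types were read on the same arrays. The samples are labelled alveolar macrophages, and all 12 alveolar macrophage markers were well above background on 4 of 4 arrays, Chil3 at 7.64 to 7.86 and Marco at 6.69 to 6.85. Their summed level, to which the bright Chil3 probe gave the largest part, was 666 and 711 times the 75th percentile on the wild-type arrays. On those labelled S1pr2-/- it was 649 and 712 times. Of the markers, 0 of 12 were past 2-fold, and the median difference was -0.02. The differences of the list ran from -0.77 to 0.58, a range that held those of Ear1, Ear2, Ear10 and Siglecf. Ear6, at -0.79, lay just below this range, and Prg2, Epx, Ccr3 and Il5ra lay further below it.

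Of the mast cell and basophil list, which shares the factors of the eosinophil lineage, 5 of 10 genes with a probe were at the floor on all 4 arrays, namely Cpa3, Fcer1a, Ms4a2, Mcpt8 and Cma1. Cpa3 was still flagged as well above background on 2 of 4 arrays, too few under the filter to be tested. The other 5, Kit, Hdc, Prss34, Mcpt4 and Tpsb2, were well above background on 4 of 4 arrays, and differed by 0.13, -0.60, 0.25, -0.59 and -0.19. The summed level of its 10 genes was 0.839 and 0.989 on the wild-type arrays against 0.761 and 0.768 on the others, and 0 of 5 passed. At an unadjusted p under 0.05 alone, 3 of the 5 were counted, Hdc, Mcpt4 and Prss34 (limma), beside 1618 of all 15429 genes. These 3 did not share a direction, and Mcpt4 was at the floor on replicate 1 labelled S1pr2-/-. The part of these cells in the result was not tested. Of 9 neutrophil genes, Retnlg, which encodes a resistin-like protein of granulocytes, passed the rule, with 2.65 and 4.33 on the wild-type arrays against -1.79 and -0.85 on those labelled S1pr2-/- (difference -4.81, unadjusted p = 0.00592, limma). S100a9 was below 0.5-fold by the fold alone, with 3.50 and 3.74 against 3.15 and 1.16 (difference -1.46, unadjusted p = 0.152, limma). The other neutrophil genes did not share a direction. S100a8, Ltf and Elane were higher, by 0.25, 0.36 and 0.15, while Cxcr2, Mmp8, Csf3r and Camp differed by -0.59, -0.32, -0.28 and -0.11. The median of the list was -0.28. The summed neutrophil level, to which the bright Csf3r probe gave the largest part, was 90.9 and 102 against 74.9 and 68.7. Ngp was at the floor on all arrays. The part of neutrophils in the result was not tested.

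Of the 7 type 2 lymphocyte genes, 2 passed, Il4 and Il13, cytokines that eosinophils also make. The differences of the whole list ran from -3.56 to -0.20, with a median of -0.68. At an unadjusted p under 0.05 alone, 5 of the 7 were counted (limma), beside 1618 of all 15429 genes. They included Gata3 at -0.81, Areg at -0.52 and Il17rb at -0.47. Il4 read -1.42 and -0.14 on the wild-type arrays against -4.43 and -4.26 on those labelled S1pr2-/-, a difference of -3.56 (unadjusted p = 0.00435, limma). Il13 read -4.57 and -2.78 on the wild-type arrays and lay at the floor on the 2 others, at least 7.85-fold lower. Like Epx, Il13 was kept only through the wild-type arrays where it is high, so its count among the 2 and among the 5 is given as a description. The summed level of the list was 1.78 and 2.62 against 1.20 and 0.987, and its part in the result was not tested. In the T cell, B cell, epithelial, erythroid and monocyte-derived macrophage lists, 0 genes passed. Their median differences were -0.38, -0.72, -0.36, 0.40 and 0.54. The erythroid genes differed by 0.16 to 0.50, with Alas2 at 0.48 and Hba-a1 at 0.50, and any link to the Gata1 values was not tested.

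**Figure D5:**
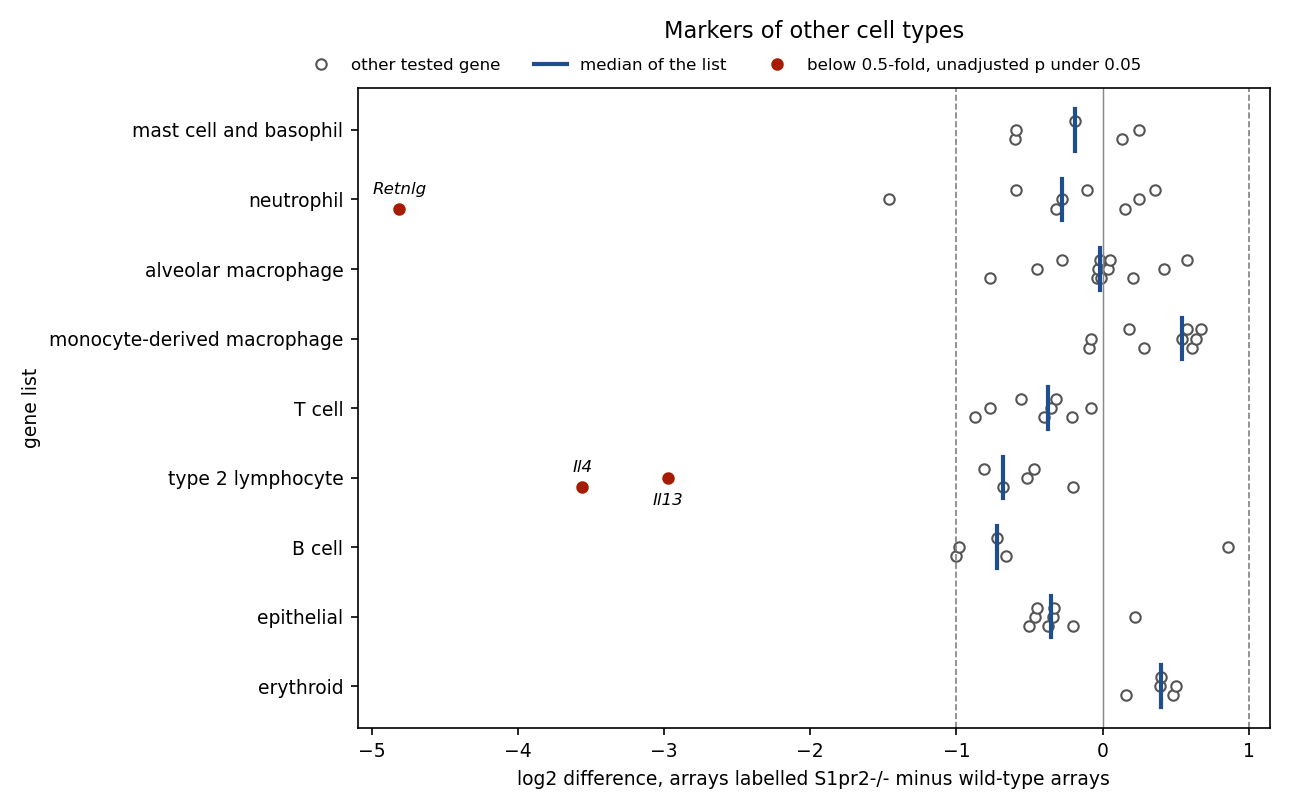
Differences on the log2 scale of the tested genes of 9 marker lists, drawn as in the plot of pathway genes, with dashed lines at 0.5- and 2-fold. The 3 filled points are Retnlg in the neutrophil list and Il4 and Il13 in the type 2 lymphocyte list, and the alveolar macrophage list is centred on -0.02.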

How the data were processed

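The authors deposited, for each of 4 arrays, background-corrected spot intensities from Feature Extraction (version 10.7.3.1 per the labels, 11.0.1.1 per the file headers). A table of normalized log2 values that the authors deposited was used only as an alternative: 99.7% of its 39359 probes lay within 0.01 of values derived from the scanner output. Flagged spots (115 to 273 per array) were left out, spots of a probe were averaged, each signal was scaled to the 75th percentile of the non-control spots of its array, floored at 0.01 and put on the log2 scale. All arrays lay on 1 slide and carried 1 scan date, so no slide batch could be tested. Accessions were matched to RefSeq gene symbols of GRCm38.p6 (69.6% of 39429 probes).

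The 27158 probes with a value on 4 arrays and signal well above background in both samples of 1 genotype or more were fitted with limma 3.58.1 in R 4.3.3 (lmFit, eBayes, Benjamini-Hochberg adjustment), as S1pr2-/- minus wild-type, and a gene was read from its brightest tested probe. The fit was tested on simulated data. The 9 members and all lists were chosen with earlier results of these data known. Named were the members, list genes past 2-fold or of a stated role, and the 5 genes outside the lists nearest to the members' median profile. Some genes of these lists are not reported here by name. Alternatives were quantile normalization, the percentile over detected probes, normexp, the authors' table, other floors and filters, a trended variance, flags kept, the replicate block, the methods' t-test, probe averaging and each array left out. Normexp used the median signal of non-control spots, since the fit over all spots failed on 1 array.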

Additional observations from a re-analysis of the deposited data

How the results depend on the processing

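Against 172 probes below 0.5-fold at an unadjusted p under 0.05, there were 79 with the percentile over detected probes, 95 with no filter on dim probes and 57 with the methods' t-test. Leaving out 1 array gave 85 to 343, with the lone array of a genotype assumed to vary like the arrays of the other. Against 29 probes above 2-fold there were 15 with the percentile over detected probes, 78 in the authors' log2 table, 77 with no floor and 15 with the methods' t-test, and leaving out 1 array gave 34 to 105. The cause was not tested. limma's count at an adjusted p under 0.05 was 0 probes (2602 at an unadjusted p under 0.05), and 2 with normexp.

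The pathway genes below 0.5-fold at an unadjusted p under 0.05 numbered 4 to 8 over the alternatives, and 3 to 5 of the members were below 0.5-fold by the fold alone. The count of 3 arose where probes had to be well above background on all 4 arrays, which removes Epx. The count of 5, without S1pr2-/- replicate 2 or without wild-type replicate 1, includes Ear6. Same-numbered arrays deviated together only weakly (r = 0.187 over 27158 probes, 2 pairs), and the labels do not say that they belong together. With the replicate block, 151 probes were lower, 34 higher and 6 pathway genes lower. The block cannot change a difference between the genotypes, since each replicate number holds 1 array of each genotype. The members' median of -0.79 is therefore the same by construction.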

Other observations

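Genes nearest in profile to single members of the low group were looked up after the values were seen, and are given as values. F5, which encodes coagulation factor V, was the nearest gene outside the lists to both Prg2 and Ccr3, at root mean square distances of 0.602 and 0.161 over 4 arrays. It read -1.09 and 0.50 on the wild-type arrays against -4.82 and -4.07 on those labelled S1pr2-/-. Serpinb2, plasminogen activator inhibitor-2, read -1.47 and -0.38 against -5.41 and -5.34, and Ren2, a renin gene, -0.15 and 1.72 against -3.61 and -3.13. The nearest to Il5ra was Inpp5j, an inositol polyphosphate phosphatase, at 0.0945, with -0.91 and 0.60 against -3.90 and -3.52. Cd34, a sialomucin of progenitor cells and of mouse eosinophils, was among the 5 nearest to Il5ra at 0.291, with 0.09 and 1.66 against -2.36 and -2.23. Tuba8 was as near, at 0.292, with -2.73 and -1.34 against -5.36 and -5.01. The nearest to Epx were Ldhc and Grm6, at 0.135 and 0.148. They read -3.02 and -1.49, and -3.37 and -1.36, on the wild-type arrays, and both lay at the floor on the others. All of these were higher on wild-type replicate 2 than on replicate 1, as Prg2, Epx, Ccr3 and Il5ra were. The distances share the 4 arrays and the genotype contrast, and carry no test.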
